A study of Saccharomyces paradoxus and Saccharomyces cerevisiae and Nakaseomyces glabratus with 58 samples.

Results

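The 10 cell wall genes GSC2 (YGR032W), FKS1 (YLR342W), UTH1 (YKR042W), SIM1 (YIL123W), SUN4 (YNL066W), GAS1 (YMR307W), CRH1 (YGR189C), BGL2 (YGR282C), SCW10 (YMR305C) and CTS1 (YLR286C) of Saccharomyces cerevisiae and their relatives in 5 other yeasts were followed across strains in which SFP1 had been deleted or altered. In the other species a gene was taken as a member when the deposited orthology table placed one of these 10 in its orthogroup, the group of genes descended from 1 ancestral gene. This gave 85 members of 36369 genes in all: 10 of 6717 in S. cerevisiae, 14 of 6038 in Saccharomyces paradoxus, 18 of 5461 in Candida glabrata, 17 of 5926 in Naumovozyma castellii, 14 of 5318 in Kluyveromyces lactis and 12 of 6909 in Schizosaccharomyces pombe. The set was chosen by measured values of these data: the fold change of GSC2 in the S. cerevisiae deletion and that of Spar_10.123 in the S. paradoxus deletion 30 min into lag phase. Values from those 2 comparisons are therefore given as descriptions without a test. Of the members, 79 carried enough counts to be tested, and the 6 that did not are named with their species. The orthology table also placed 18 names of S. paradoxus, 36 of N. castellii and 2 of K. lactis in these families without a count row. Whether these are further genes or other names of counted ones was not tested, so the families of those species may be incomplete.

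Sfp1, a transcription factor with zinc fingers, is known in budding yeast for activating ribosomal protein and ribosome biogenesis genes in response to nutrients. The yeast wall is a mesh of beta-1,3-glucan with mannoproteins, beta-1,6-glucan and some chitin. The glucan is polymerised at the plasma membrane by a synthase whose alternative catalytic subunits are Fks1, the main one in cells growing on glucose, and Gsc2 (also called Fks2), known to be induced by glucose limitation, mating pheromone, high calcium and wall stress. Outside the membrane the chains are lengthened and joined: Gas1 elongates glucan, Crh1 links chitin to glucan, and Bgl2 and Scw10 are secreted wall proteins of the glucanase type. Cts1 is the chitinase that frees the daughter cell from its mother. Uth1, Sim1 and Sun4 belong to the SUN family of secreted glucanase-like proteins, which act in wall remodelling and septation.

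RNA was sequenced as paired reads of 25 bases from cells in a medium the labels abbreviate as BMW. There were 19 groups of 3 libraries, lettered A to C, and the labels do not say whether the libraries of a group came from separate cultures, so p-values measure only the spread between these samples. At log phase (optical density 0.6 to 0.8) the groups were delta sfp1, HA tagged Sfp1 and wild type in S. cerevisiae; delta sfp1 and wild type in S. paradoxus, K. lactis and S. pombe; delta CAGL0D00682g, delta CAGL0M09955g and wild type in C. glabrata; and delta Scas551.1, delta Scas719.24 and wild type in N. castellii, the last 2 species having 2 SFP1 paralogs each. S. paradoxus delta sfp1 and wild type were also taken 30 and 60 min after glucose was returned, in lag phase. The strain background, mating type, number of clones and deletion construct are not stated in the labels for any group. One wild type S. cerevisiae sample at 60 min, of 58 in the labels, is the sole one of its group and was not analysed here.

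The targeted gene was checked first. SFP1 had 0 counts in all 3 S. cerevisiae deletion libraries, between 119 and 202 in the HA-tagged ones and between 97 and 257 in wild type. The deleted gene had at most 3 counts in each deletion library of S. paradoxus, C. glabrata, N. castellii and K. lactis, and at least 64 in each wild type library of S. paradoxus, N. castellii and K. lactis. In S. pombe, SPAC16.05c, which is sfp1, had 98, 106 and 22 counts in the libraries labelled deletion, against 169, 100 and 134 in wild type, so those libraries are called the labelled deletion throughout. Total counts per library ran from 1360916 to 3447874 in the log phase libraries outside S. pombe, from 712972 to 2252092 in S. pombe, and from 418292 to 640282 in the S. paradoxus lag phase libraries other than deletion library A at 30 min, which held 34081. In S. paradoxus log phase the summed level of 5 alpha mating type genes was 3405 to 3879 CPM (counts scaled to a common library total) in the deletion and 30.9 to 35.9 in wild type, where 1 of the 5 was at 0 in all 3 libraries, and that of 2 a mating type genes was 36.5 to 46.3 in the deletion and 1025 to 1056 in wild type. At 30 and 60 min both S. paradoxus strains had alpha sums above 970 CPM, 3234 to 4126 in the deletion and 979 to 1166 in wild type, and a sums of at most 64.9 CPM. Mating type and SFP1 genotype therefore cannot be told apart in S. paradoxus at log phase, while at 30 and 60 min both strains read as alpha. In S. cerevisiae all 3 strains read as a: their a sums were 929 to 969 CPM in the deletion, 1527 to 1558 in the HA-tagged strain and 1614 to 1650 in wild type, and alpha sums were at most 90.2 CPM in every library.

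The sequences upstream of 5 S. cerevisiae members are shown because these genes carry the contrast within the 2 best known families: the glucan synthase pair GSC2 and FKS1, which differed in opposite directions in the deletion, and the SUN genes UTH1, SIM1 and SUN4. Each is the plus strand of RefSeq R64 from 300 to 101 bases before the start codon, with the gene read from left to right. Capitals mark matches, on either strand, to any of 5 short motifs searched: AGGGG (the stress response element), CGCGAAA (the SCB site of the G1/S factor SBF), ACGCGT (the MCB site of MBF), GATGAG (the PAC motif of ribosome biogenesis genes) and AAAATTTT (an A/T motif found beside PAC). The 5 regions are chrVII:547964-548163 for GSC2, chrXII:809697-809896 for FKS1, chrXI:519227-519426 for UTH1, chrIX:127851-128050 for SIM1 and chrXIV:501215-501414 for SUN4.
GSC2: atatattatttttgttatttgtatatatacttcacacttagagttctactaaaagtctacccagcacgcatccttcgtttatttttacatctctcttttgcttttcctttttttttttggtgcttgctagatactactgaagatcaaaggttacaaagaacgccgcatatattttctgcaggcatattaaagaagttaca
FKS1: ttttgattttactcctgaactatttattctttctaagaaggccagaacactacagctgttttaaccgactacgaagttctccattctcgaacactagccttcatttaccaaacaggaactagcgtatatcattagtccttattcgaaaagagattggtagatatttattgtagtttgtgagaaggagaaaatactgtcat
UTH1: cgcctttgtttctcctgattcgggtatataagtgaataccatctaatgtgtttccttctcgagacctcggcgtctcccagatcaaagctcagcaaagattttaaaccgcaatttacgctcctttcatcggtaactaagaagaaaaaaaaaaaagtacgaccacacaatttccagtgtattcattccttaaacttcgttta
SIM1: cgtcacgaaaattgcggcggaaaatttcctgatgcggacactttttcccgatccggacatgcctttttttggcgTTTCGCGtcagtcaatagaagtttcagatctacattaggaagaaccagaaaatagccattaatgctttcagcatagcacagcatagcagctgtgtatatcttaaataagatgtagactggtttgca
SUN4: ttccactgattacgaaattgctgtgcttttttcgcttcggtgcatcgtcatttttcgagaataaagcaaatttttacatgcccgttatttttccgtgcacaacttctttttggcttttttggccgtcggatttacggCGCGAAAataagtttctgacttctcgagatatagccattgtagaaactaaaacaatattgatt

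Over the full 300 bases before the start codon, the SCB letters stood in SIM1 (as TTTCGCG, 226 to 220 bases before the start codon) and in SUN4 (as CGCGAAA, 163 to 157 bases before it), and in 3.95% of all 6001 upstream regions of the same length. AAAATTTT stood in BGL2 (196 to 189), against 9.42% of all regions. The letters of the stress response element, the MCB site and PAC were in none of the 10 members' windows, against 22.2%, 3.48% and 19.1% of all regions. GSC2, FKS1 and UTH1 held none of the 5 motifs, so their lines carry no capitals. GSC2 and FKS1 lie on different chromosomes, VII (548264 to 553951) and XII (809997 to 815627), with coding lengths of 5688 and 5631 bases. Of the 5664 stretches of 25 bases in GSC2, 59 (1.04%) occur elsewhere in the genome, all of them in FKS1, so reads of this length separate the 2 genes over nearly their whole length.

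In the S. cerevisiae sfp1 deletion the minor glucan synthase gene GSC2 was 8.83 times its wild type level while the major one, FKS1, was 0.636 times its level, and the SUN gene UTH1 was 2.70 times its level. SIM1, SUN4, SCW10, CTS1 and BGL2 were higher by smaller amounts, and GAS1 and CRH1 lay nearest to wild type. As bulk RNA was measured, fewer cells of a kind and less RNA per cell cannot be told apart here or in the other species. All 10 members passed the filter on low counts.

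GSC2 had 551, 581 and 528 CPM in the deletion libraries, against 67.3, 65.5 and 56.5 CPM in wild type, a log2 fold change of 3.14 ± 0.08 (standard error, SE). The lowest deletion library was far above the highest wild type library. FKS1 had 941, 988 and 967 CPM in the deletion, against 1568, 1414 and 1578 CPM in wild type, a log2 fold change of -0.65 ± 0.07, and every deletion library was below every wild type library. GSC2 therefore made up 36.4% ± 0.964 (SD, n = 3) of the CPM of the synthase pair in the deletion and 4.0% ± 0.498 in wild type. The summed level of the pair was nearly level, at 1519 ± 44.2 CPM in the deletion and 1583 ± 90 CPM in wild type (SD, n = 3 each).

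Among the SUN genes, UTH1, which is also known from studies of ageing and mitochondrial turnover, had 2310, 2740 and 2354 CPM in the deletion, against 894, 940 and 903 CPM in wild type, a log2 fold change of 1.43 ± 0.08. SIM1 had 620, 674 and 628 CPM in the deletion, against 428, 462 and 482 CPM in wild type (0.48 ± 0.07). SUN4 had 437, 508 and 430 CPM in the deletion, against 300, 302 and 327 CPM in wild type (0.56 ± 0.08). All 3 were higher in every deletion library than in any wild type library, and UTH1 took 69.2% ± 0.638 of their summed CPM in the deletion and 54.3% ± 1.38 in wild type.

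The remodelling enzymes differed less. SCW10 had 528, 644 and 593 CPM in the deletion, against 424, 409 and 443 CPM in wild type (log2 fold change 0.47 ± 0.08). The chitinase CTS1 had 1862, 1824 and 1814 CPM in the deletion, against 1342, 1287 and 1337 CPM in wild type (0.47 ± 0.06). BGL2 had 1028, 1202 and 1078 CPM in the deletion, against 892, 886 and 899 CPM in wild type (0.31 ± 0.06). None of these groups overlapped. CRH1 had 397, 411 and 404 CPM in the deletion, against 362, 372 and 376 CPM in wild type, a difference of 0.13 ± 0.06 on the log2 scale. The glucan elongase GAS1 had 1763, 1954 and 1815 CPM in the deletion, against 2088, 2043 and 2058 CPM in wild type, and its log2 fold change of -0.16 ± 0.06 was, with that of FKS1, one of 2 below 0. With library size alone, which moved the median of all genes by 0.23, the difference of GAS1 was 0.06 and FKS1 alone stayed below 0. In all, 8 of 10 members were higher in every deletion library than in every wild type library, where 31.1% of all genes were, and 2 were lower in every one, where 28.9% of all genes were. Over all genes 26.0% were called higher and 26.0% lower in this comparison (edgeR quasi-likelihood test, Benjamini-Hochberg adjusted p below 0.05). Nothing is read from the members' counts here, as this comparison helped to choose them.

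**Figure D1:**
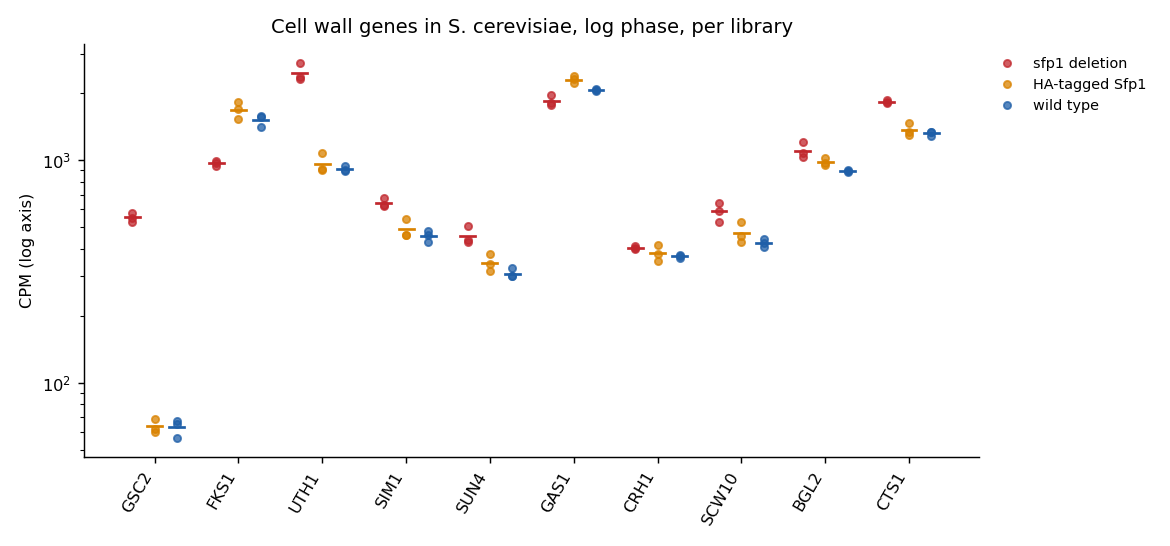
Levels of the 10 S. cerevisiae members at log phase, in CPM on a log axis, for the sfp1 deletion (red), HA-tagged Sfp1 (orange) and wild type (blue); points are libraries, lines are means of 3. GSC2 and UTH1 sit well above wild type in the deletion, FKS1 sits below it, and the HA-tagged libraries lie near wild type for each gene.

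Levels of different genes can be set beside each other only per length. Per kilobase of coding sequence, UTH1 was the highest member in the deletion, at 2248 ± 215 CPM per kb (SD, n = 3), and GAS1 was the highest in wild type, at 1228 ± 13.5. In the deletion BGL2 (1170 CPM per kb), GAS1 (1098) and CTS1 (1086) followed, and neighbours among these 3 overlapped. In wild type BGL2 (947), UTH1 (831) and CTS1 (783) followed without overlap. GSC2 was last in every strain, at 97.3 ± 4.73 CPM per kb in the deletion, 11.2 in the HA-tagged strain and 11.1 ± 1.02 in wild type. FKS1, at 171 CPM per kb in the deletion and 270 in wild type, remained above GSC2 in both.

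The HA-tagged strain was compared with wild type in the same way. No member was called among 10 tested (edgeR), 2 had an unadjusted p below 0.05, and log2 fold changes ran from 0.03 to 0.16. Over all genes edgeR called 0.0%, DESeq2 called 3 genes, and 318 genes were below an unadjusted p of 0.05. GSC2 had 68.4, 62.2 and 60.2 CPM in the HA-tagged libraries, within 0.03 ± 0.10 (SE, log2) of wild type (adjusted p = 0.989). FKS1 had 1524, 1694 and 1817 CPM and UTH1 had 916, 905 and 1073 CPM in these libraries, and both overlapped wild type. GAS1, at 2222, 2305 and 2379 CPM in the HA-tagged strain, lay above all 3 wild type libraries, with a log2 difference of 0.16 ± 0.06 (adjusted p = 0.781). Of the 10 members, 2 were higher in every HA-tagged library than in every wild type library, where 5.78% of all genes were.

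The genes whose log2 CPM followed GSC2 most closely over the 9 S. cerevisiae libraries, among 4763 genes averaging at least 4 in log2 CPM, were ABD1 (Pearson r 0.9969), LYS2 (0.9966), PDB1 (0.9965), FTH1 (0.9965) and SSA3 (0.9956). All 5 are on chromosome II, and GSC2 is not. UTH1 was 64th in this order (0.988), CTS1 249th (0.964), and FKS1 4329th (-0.968). These 9 libraries fall into a deletion group and 6 others, which sets most of each correlation, so the values only describe likeness of pattern.

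Other S. cerevisiae wall genes were read from 7 lists that leave the members out: glucan synthesis, glucan remodelling, chitin, cell separation, wall proteins, wall integrity signalling and the remaining SUN gene. In the deletion 39 of 91 were called higher and 19 lower, with a median log2 fold change of 0.15, against 0.03 over all genes tested. With library size alone 58 were higher and 6 lower, where 3403 of all 5826 genes were called in either direction. The medians were then 0.38 for the lists and 0.26 over all genes. Of 13 cell separation genes 10 were called, all of them higher. Of 12 glucan remodelling genes 7 were higher and 2 lower, of 11 glucan synthesis genes 3 were higher and 3 lower, and of 20 wall protein genes 8 were higher and 6 lower. Of 23 wall integrity signalling genes 7 were higher and 4 lower, and of 13 chitin genes 5 were higher and 4 lower. NCA3, the SUN gene outside the member set, rose by 1.36 ± 0.25 on the log2 scale (adjusted p = 0.000203), and GAS2, a GAS family gene known for spore wall assembly, rose by 0.71 ± 0.11 (adjusted p = 3.52e-05). The mannoprotein gene CWP1 averaged 23.5 CPM in the deletion and 184 CPM in wild type, a log2 fold change of -2.96 ± 0.10 (adjusted p = 9.21e-13). The largest called changes of the other 4 lists were those of CHS2, a chitin synthase gene on chromosome II (1.46), PRY3, a GPI-anchored wall protein gene (1.07), BIG1, which acts in beta-1,6-glucan assembly (0.91), and the stress sensor gene WSC4 (0.79). On chromosome II 89.3% of genes were called higher in the deletion, against 21.6% elsewhere; none of the 10 members lies there, and without its genes the lists gave 32 higher and 19 lower of 84. Its part in the list counts beyond this was not tested.

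In S. paradoxus the 14 members were followed at 3 times. The SUN gene Spar_10.123 was low in wild type at log phase and 60 min, and in the deletion it was higher by 2.40 on the log2 scale at log phase and by 5.31 at 60 min. A second SUN gene, Spar_11.333, a glucan synthase gene, Spar_7.339, the SCW gene Spar_13.504 and a chitinase gene, Spar_12.405, were also higher in the deletion at each time. The CRH genes Spar_7.545 and Spar_5.37, whose relatives join chitin to glucan, were lower at log phase, a call that both lost with library size alone, and higher at 60 min. Names of single S. cerevisiae genes are not given to these IDs, since the orthogroups hold GSC2, FKS1 and FKS3 together, and SIM1, NCA3, UTH1 and SUN4 together. These groups, and that of GAS1 with GAS2, also hold genes outside the 10, so an ID may be the relative of one of those. The SUN IDs begin Spar_9, Spar_10, Spar_11 and Spar_14, while SIM1, UTH1 and SUN4 lie on chromosomes IX, XI and XIV. If ID numbers follow chromosomes, which was not tested, Spar_10.123 is left for NCA3, outside the set. Of the 14, 13 were tested; Spar_12.474, the GAS gene, did not pass the filter, with 10.9, 12.9 and 12.9 CPM in the log phase deletion and 5.53, 5.07 and 7.68 CPM in wild type, and with 8.36, 9.02 and 9.84 CPM in the deletion and 3.48 to 6.50 CPM in wild type at 60 min.

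At log phase 8 of 13 members were called higher in the deletion, where 24.8% of all genes were (edgeR). Another 3 were called lower, where 32.6% of all genes were. With library size alone 11 were called, all of them higher, where 3561 of all 4908 genes were called in either direction. That scaling put the median of all genes at 0.45. Spar_10.123 had 35.4, 32.6 and 33.9 CPM in the deletion, against 6.22, 6.59 and 6.14 CPM in wild type, a log2 fold change of 2.40 ± 0.23 (SE, adjusted p = 8.96e-11), and both groups were tight and far apart. Spar_11.333 had 2292, 2753 and 2839 CPM in the deletion, against 1283, 1171 and 1190 CPM in wild type (1.11 ± 0.11, adjusted p = 1.99e-10). The chitinase gene Spar_12.405 had 160, 181 and 174 CPM in the deletion, against 53.9, 42.0 and 46.1 CPM in wild type (1.86 ± 0.12, adjusted p = 4.82e-15). Neither pair of groups overlapped. The synthase gene Spar_7.339 had 159, 136 and 138 CPM in the deletion, against 60.8, 71.9 and 98.3 CPM in wild type (0.92 ± 0.14, adjusted p = 1.41e-06), and Spar_13.504 had 703, 819 and 829 CPM, against 556, 556 and 509 CPM in wild type (0.53 ± 0.09, adjusted p = 6.92e-06). Both were higher in every deletion library. At log phase 8 of 13 members were higher in every deletion library than in every wild type library, where 27.4% of all genes were.

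On the lower side at log phase stood the CRH genes. Spar_7.545 had 533, 675 and 590 CPM in the deletion, against 904, 918 and 833 CPM in wild type (log2 fold change -0.57 ± 0.10, adjusted p = 8.08e-06). Spar_5.37 had 585, 675 and 689 CPM in the deletion, against 985, 1036 and 886 CPM in wild type (-0.58 ± 0.09, adjusted p = 9.3e-07). No deletion library reached the wild type range for either gene. Over all genes 35.4% were lower in every deletion library than in every wild type library. Scaled by library size alone, which moved the median of all genes by 0.50, these 2 differences shrank to -0.07 (adjusted p = 0.397) and -0.08 (adjusted p = 0.308). The BGL2 gene Spar_7.637 had 725, 797 and 711 CPM in the deletion, against 881, 832 and 849 CPM in wild type (-0.20 ± 0.08, adjusted p = 0.0317), and with library size alone its difference turned to 0.30 (adjusted p = 0.000785). The weak calls of Spar_13.505, a synthase gene (0.50 ± 0.18, adjusted p = 0.0161), of Spar_14.274, a SUN gene (0.24 ± 0.10, adjusted p = 0.0413), of Spar_12.321, a CRH gene under 17 CPM (0.88 ± 0.29, adjusted p = 0.011), and of Spar_7.637 each missed the threshold without 1 of the libraries, which are named in the closing section. Spar_9.50, of the SUN family, overlapped between the strains (-0.08 ± 0.11, adjusted p = 0.556; with library size alone 0.41), and Spar_4.589, of the chitinase family, was not called (0.37 ± 0.17, adjusted p = 0.0628). It passed with library size alone (0.87, adjusted p = 4.58e-05), RLE size factors (0.45, 0.0232), no filter on low counts (0.49, 0.0128), the log phase groups alone (0.43, 0.0411) and without wild type library C (0.47, 0.0408).

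At 60 min into lag phase 9 of 13 members were called in the deletion, all of them higher (edgeR). Over all genes 25.7% were called higher and 25.0% lower. An unadjusted p below 0.05 was found for 10 members. With library size alone 12 were called, all higher, where 2720 of all 4908 genes were called in either direction. The median log2 fold change of all genes was then 0.32. Spar_10.123 had 381, 364 and 332 CPM in the deletion, against 5.23, 11.4 and 10.0 CPM in wild type, a log2 fold change of 5.31 ± 0.22 (fold 39.7, adjusted p = 2.58e-19). Behind these values stand 182, 242 and 236 counts in the deletion and 3, 7 and 5 in wild type, so the size of the fold rests on few wild type counts, while the groups lie far apart. Spar_11.333 had 6704, 6964 and 6345 CPM in the deletion, against 1665, 1348 and 1653 CPM in wild type (2.10 ± 0.12, adjusted p = 1.77e-16). A further SUN gene, Spar_9.50, had 876, 692 and 775 CPM in the deletion, against 352, 291 and 358 CPM in wild type (1.23 ± 0.12, adjusted p = 3.93e-10), and all 3 of these SUN genes were above the wild type range in every deletion library. The fourth SUN gene, Spar_14.274, had 176, 170 and 176 CPM in the deletion, against 176, 158 and 170 CPM in wild type, and was not called (0.05 ± 0.13, adjusted p = 0.78; with library size alone 0.34, adjusted p = 0.023). The summed CPM of the 4 SUN genes was 7984 ± 311 in the deletion and 2066 ± 223 in wild type (SD, n = 3 each).

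The glucan synthase gene Spar_7.339 had 213, 193 and 242 CPM in the deletion at 60 min, against 62.7, 45.5 and 42.0 CPM in wild type (log2 fold change 2.10 ± 0.20, adjusted p = 9.17e-11). It made up 79.3% ± 4.43 of the CPM of the 2 synthase genes in the deletion and 58.6% ± 10.5 in wild type (SD, n = 3 each). In log phase wild type these 2 genes summed to 108 ± 17.2 CPM, against 1583 ± 90 CPM for GSC2 and FKS1 in S. cerevisiae. The 2 pairs may not be the same genes, as the orthogroup also holds FKS3. FKS1 lies on chromosome XII, and no counted synthase ID begins with Spar_12, though whether ID numbers follow chromosomes was not tested. Whether a synthase gene of S. paradoxus lacks a count row was not tested, so this share covers the counted genes only. The other synthase gene, Spar_13.505, had 73.2, 46.6 and 49.2 CPM in the deletion, against 26.1, 39.0 and 40.0 CPM in wild type (0.65 ± 0.26, adjusted p = 0.0366), and its call was lost without deletion library A (adjusted p = 0.184), wild type library A (0.181) or wild type library B (0.0539), and with DESeq2 (0.0666). For both synthase genes each deletion library was above each wild type library. Spar_13.504, of the SCW orthogroup, had 2074, 1811 and 1889 CPM in the deletion, against 662, 535 and 660 CPM in wild type (1.64 ± 0.10, adjusted p = 8.66e-16). Spar_12.405, a chitinase gene, had 123, 158 and 150 CPM in the deletion, against 26.1, 32.5 and 22.0 CPM in wild type (2.41 ± 0.19, adjusted p = 8.29e-13). Each of these last 2 was higher in the deletion by a wide margin, and the second chitinase gene, Spar_4.589, was not called (-0.10 ± 0.24, adjusted p = 0.769; with library size alone 0.19). Spar_7.545, a CRH gene, had 1857, 1653 and 1665 CPM in the deletion, against 850, 746 and 768 CPM in wild type (1.13 ± 0.10, adjusted p = 2.76e-11). Spar_5.37 had 1426, 1439 and 1410 CPM in the deletion, against 1068, 1127 and 1137 CPM in wild type (0.36 ± 0.09, adjusted p = 0.00124). Both of these CRH genes were above the wild type range in every deletion library. At 60 min 10 of 13 members were above it in this way, where 29.3% of all genes were. Below it in every deletion library were 0 members, where 27.8% of all genes were. The third CRH gene, Spar_12.321, averaged under 25 CPM in both strains (1.02 ± 0.44, adjusted p = 0.0504; without wild type library A 0.015; with library size alone 1.30, 0.0126), and the BGL2 gene Spar_7.637 did not pass either (0.08 ± 0.08, adjusted p = 0.468; with library size alone 0.36, 0.000275).

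The difference in deletion effect between 60 min and log phase was tested directly. It was larger at 60 min for 7 of 13 members, where 16.1% of all genes were called in that direction and 9.11% in the other. Spar_10.123 led, by 2.91 ± 0.44 on the log2 scale (adjusted p = 4.33e-06), followed by Spar_7.545 (1.69 ± 0.14, adjusted p = 4.69e-11), Spar_9.50 (1.30 ± 0.17, adjusted p = 2.3e-07), Spar_7.339 (1.18 ± 0.25, adjusted p = 0.00065), Spar_13.504 (1.10 ± 0.13, adjusted p = 8.84e-08), Spar_11.333 (0.99 ± 0.16, adjusted p = 1.13e-05) and Spar_5.37 (0.94 ± 0.13, adjusted p = 6.79e-07). The chitinase gene Spar_12.405 differed by 0.55 ± 0.24 and was not called (adjusted p = 0.0935), nor was Spar_7.637 (0.28, adjusted p = 0.0777; without log phase deletion library B 0.0472). As the log phase strains also differ in mating type, growth phase and mating type cannot be told apart in these 7 differences.

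**Figure D2:**
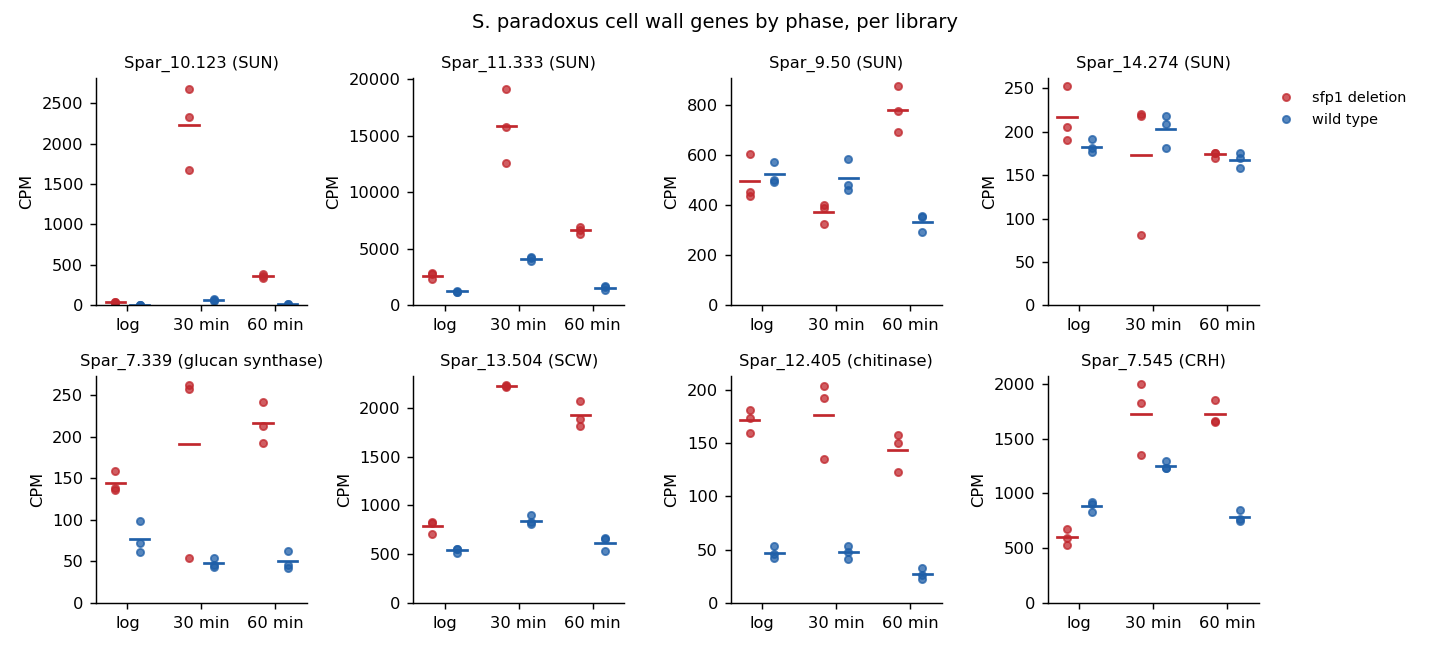
Levels of 8 S. paradoxus members in CPM (linear axes from 0) at log phase and 30 and 60 min after glucose repletion, for the sfp1 deletion (red, left) and wild type (blue, right); points are libraries, lines are means of 3. Spar_10.123 and Spar_11.333 peak at 30 min in the deletion, Spar_7.545 changes from below to above wild type between log phase and 60 min, and 1 deletion library at 30 min, of 34081 counts, stands apart for Spar_14.274 and Spar_7.339.

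At 30 min the levels are given without a test. Spar_10.123 had 1671, 2673 and 2334 CPM in the deletion, against 53.0, 65.9 and 81.0 CPM in wild type, a fold of 35.0 (log2 5.13 ± 0.14, SE). Spar_11.333 had 12587, 19191 and 15821 CPM in the deletion, against 4227, 3882 and 4284 CPM in wild type (1.96 ± 0.11). In both strains these 2 genes were highest at 30 min among the 3 times. Spar_13.504 had 2210, 2228 and 2240 CPM in the deletion, against 805, 899 and 831 CPM in wild type (1.40 ± 0.10), and Spar_12.405 had 135, 193 and 204 CPM, against 48.2, 53.1 and 41.6 CPM in wild type (2.03 ± 0.18). Spar_7.339 had 53.9, 262 and 258 CPM in the deletion, against 43.4, 45.8 and 54.0 CPM in wild type, and the lowest of these, in deletion library A, rests on 2 counts. Spar_9.50 went the other way at this time, with 323, 388 and 401 CPM in the deletion, against 461, 480 and 584 CPM in wild type (-0.39 ± 0.14). Over all genes 28.3% were called higher and 24.6% lower at 30 min.

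The 14 members together made up 26187 ± 4607 CPM in the deletion and 10207 ± 231 CPM in wild type at 30 min, 14475 ± 460 CPM in the deletion and 5635 ± 309 CPM in wild type at 60 min, and 6576 ± 568 CPM in the deletion and 5375 ± 190 CPM in wild type at log phase (SD, n = 3 each). Spar_11.333, by counts and not per length, held 77.9% ± 2.41 of the SUN family's CPM in the deletion and 63.1% ± 0.223 in wild type at log phase, 85.2% ± 0.811 in the deletion and 84.2% ± 1.54 in wild type at 30 min, and 83.5% ± 1.35 in the deletion and 75.2% ± 0.623 in wild type at 60 min. At 30 min Spar_10.123 held 11.9% ± 0.518 of the SUN CPM in the deletion and 1.36% ± 0.252 in wild type. The genes most like Spar_10.123 in log2 CPM over the 18 S. paradoxus libraries, among 4370 genes, were Spar_11.333 (Pearson r 0.9871), Spar_5.209 (0.9834), Spar_16.411 (0.9829), Spar_5.47 (0.9816) and Spar_14.149 (0.9811). The orthology table groups the last 4 with VHR2 and VHR1, with ROX1, with MCM3 and with YNL190W. Spar_13.504 stood 11th (0.962). The libraries form 6 groups and share their depth differences, and these values are a description.

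Of the other S. paradoxus wall genes on the 7 lists, 49 of 97 were called higher and 10 lower at 60 min, with a median log2 fold change of 0.47, against 0.04 over all genes. At log phase 21 of the 97 were higher and 27 lower (median -0.04, against -0.05 over all genes). With RLE size factors 28 were higher and 22 lower. With library size alone 66 were higher and 7 lower, and the median was 0.46, against 0.45 over all genes. Of all 4908 genes 3561 were called in that fit. At 60 min 15 of 29 wall integrity signalling genes were called, all higher, as were 7 higher and 1 lower of 11 glucan synthesis genes and 14 higher and 3 lower of 24 wall protein genes. Of 17 chitin genes 6 were higher and 2 lower, and of 5 glucan remodelling genes 3 were higher. Of 14 cell separation genes 6 were higher and 4 lower at 60 min (median 0.05), and the deletion effect at 60 min was lower than at log phase for 4 of them and higher for 0 (median difference -0.50, against 0.06 over all genes). Spar_10.167, grouped with PRY3, a GPI-anchored wall protein gene, rose by 2.36 at 60 min and by 2.09 at log phase on the log2 scale. The largest list change at log phase was a fall: Spar_9.174, in an orthogroup of aspartyl protease genes with BAR1, known in S. cerevisiae as expressed in a cells, averaged 16.4 ± 3.52 CPM in the deletion and 277 ± 11.9 CPM in wild type (SD, n = 3 each), a log2 fold change of -4.03 ± 0.17 (adjusted p = 8.4e-20). At 60 min it averaged 29.3 ± 4.85 CPM in the deletion and 14.2 ± 15 CPM in wild type (SD, n = 3 each), with very uneven wild type libraries, and the deletion effect was higher by 5.09 ± 0.44 than at log phase (adjusted p = 1.27e-10). Spar_14.13, grouped with KRE1, which acts in beta-1,6-glucan assembly, rose by 1.70 at 60 min, and Spar_7.272, grouped with the glucanase-like daughter cell gene SCW11, by 0.98. Genes with IDs beginning Spar_2, 352 of those tested, had a median log2 fold change of 0.70 at log phase and 0.59 at 60 min; no member has such an ID, and without them the lists gave 44 higher and 9 lower of 88 at 60 min.

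**Figure D3:**
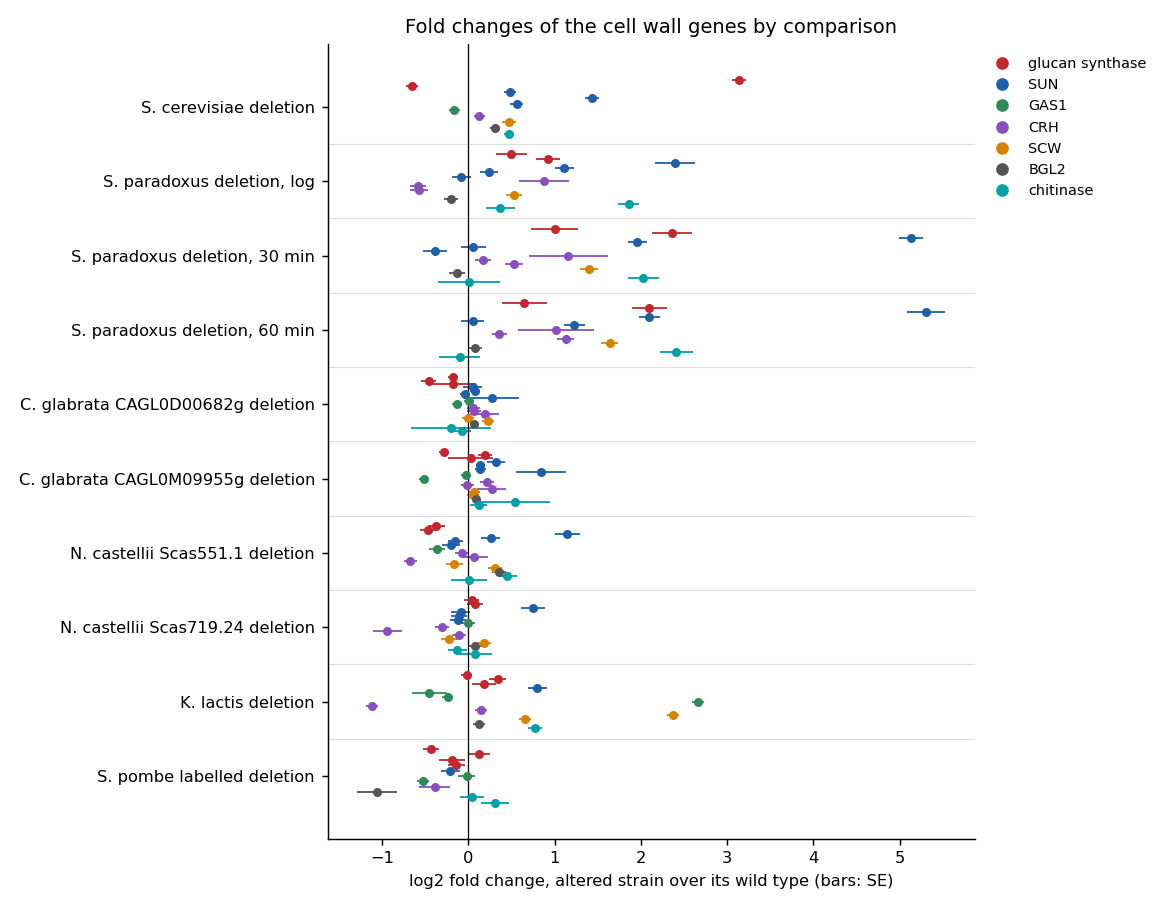
Log2 fold change of each tested member in 10 comparisons of an altered strain over its wild type; points are members coloured by family, and bars are SE of the edgeR fit. Positive values mean higher in the altered strain. The S. paradoxus lag phase, S. cerevisiae and K. lactis comparisons spread widest, and the C. glabrata comparisons lie nearest to 0.

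K. lactis has a single SFP1 gene. In its deletion the GAS gene KLLA0C14113g was 6.33 times and the SCW gene KLLA0A03201g was 5.17 times its wild type level, and the SUN gene, the chitinase gene and the second SCW gene were also higher. The CRH gene KLLA0F16907g was lower. Of 13 members tested, 6 were called higher, where 33.1% of all genes were, and 2 lower, where 33.3% of all genes were (edgeR). With library size alone 9 were higher and 1 lower, where 3204 of all 4941 genes were called in either direction. The median log2 fold change of all genes was then 0.24. KLLA0F04906g, a CRH gene near 2 CPM, did not pass the filter.

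KLLA0C14113g had 203, 209 and 202 CPM in the deletion, against 34.1, 29.1 and 33.8 CPM in wild type (log2 fold change 2.66 ± 0.07, adjusted p = 2.58e-15), with little spread in either strain. It made up 20.1% ± 0.944 of the CPM of the 3 GAS genes in the deletion and 3.25% ± 0.398 in wild type (SD, n = 3 each). The second GAS gene, KLLA0C14091g, had 784, 777 and 842 CPM in the deletion, against 920, 995 and 926 CPM in wild type (-0.24 ± 0.06, adjusted p = 0.00201), and the GAS sum was 1017 ± 34.0 CPM in the deletion and 996 ± 37.4 CPM in wild type. With library size alone the difference of KLLA0C14091g was -0.01 (adjusted p = 0.926). KLLA0B05808g, the third GAS gene, had 9.92, 13.5 and 13.3 CPM in the deletion, against 15.8, 14.9 and 18.9 CPM in wild type (-0.45 ± 0.20, adjusted p = 0.0506); it was not called, and it passed without deletion library B (adjusted p = 0.0485) or wild type library B (0.0473).

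Both SCW genes rose. KLLA0A03201g had 257, 240 and 245 CPM in the deletion, against 49.9, 47.9 and 45.8 CPM in wild type (log2 fold change 2.37 ± 0.07, adjusted p = 8.67e-15). KLLA0C14047g had 1027, 1147 and 1228 CPM in the deletion, against 748, 669 and 742 CPM in wild type (0.66 ± 0.07, adjusted p = 2.35e-07). KLLA0A03201g thus held 18% ± 1.8 of the pair's CPM in the deletion and 6.25% ± 0.433 in wild type. The one SUN gene, KLLA0F04433g, had 381, 475 and 550 CPM in the deletion, against 279, 229 and 301 CPM in wild type (0.80 ± 0.11, adjusted p = 7.81e-06). The chitinase gene KLLA0C04730g had 196, 225 and 221 CPM in the deletion, against 131, 118 and 125 CPM in wild type (0.77 ± 0.08, adjusted p = 6.71e-08). None of these groups overlapped. In all, 6 of 13 members were higher in every deletion library than in every wild type library, where 35.0% of all genes were. Another 3 were lower in every one, where 35.3% of all genes were. Of the 3 synthase genes, KLLA0B05841g had 1150, 1171 and 1305 CPM in the deletion, against 1273, 1167 and 1232 CPM in wild type and was not called (-0.02 ± 0.06, adjusted p = 0.807; with library size alone 0.21). KLLA0C08888g had 61.1, 52.3 and 58.9 CPM in the deletion, against 46.2, 47.5 and 43.4 CPM in wild type (0.34 ± 0.10, adjusted p = 0.00696). KLLA0C14069g, the third, was not called (0.18 ± 0.14, adjusted p = 0.271).

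KLLA0F16907g, a CRH gene, had 133, 143 and 148 CPM in the deletion, against 307, 306 and 305 CPM in wild type (log2 fold change -1.12 ± 0.07, adjusted p = 1.92e-10). Its groups were far apart, and the other tested CRH gene, KLLA0F22671g, differed by 0.15 ± 0.07 and was not called (adjusted p = 0.0788; without deletion library A 0.0195). The BGL2 gene KLLA0F03036g overlapped between strains (0.12 ± 0.07, adjusted p = 0.165). Among the other wall genes of the 7 lists, 28 of 54 were higher and 12 lower (median log2 fold change 0.18, against 0.01 over all genes), and with library size alone 32 and 6; 8 of 10 cell separation genes were called, all higher, and of 11 wall protein genes 8 were higher and 1 lower, while of 12 chitin genes 2 were higher and 4 lower. KLLA0D02442g, grouped with PRY3, rose by 2.71 and KLLA0C05324g, grouped with the exoglucanase genes EXG, rose by 1.53 on the log2 scale. KLLA0B06347g, grouped with YJU2 and the mannoprotein gene CWP1, averaged 180 ± 5.19 CPM in the deletion and 23.7 ± 2.74 CPM in wild type (SD, n = 3 each). It rose by 2.93 ± 0.08 (adjusted p = 3.69e-15), and which of the 2 genes it corresponds to was not tested. In S. cerevisiae CWP1 fell by 2.96.

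**Figure D4:**
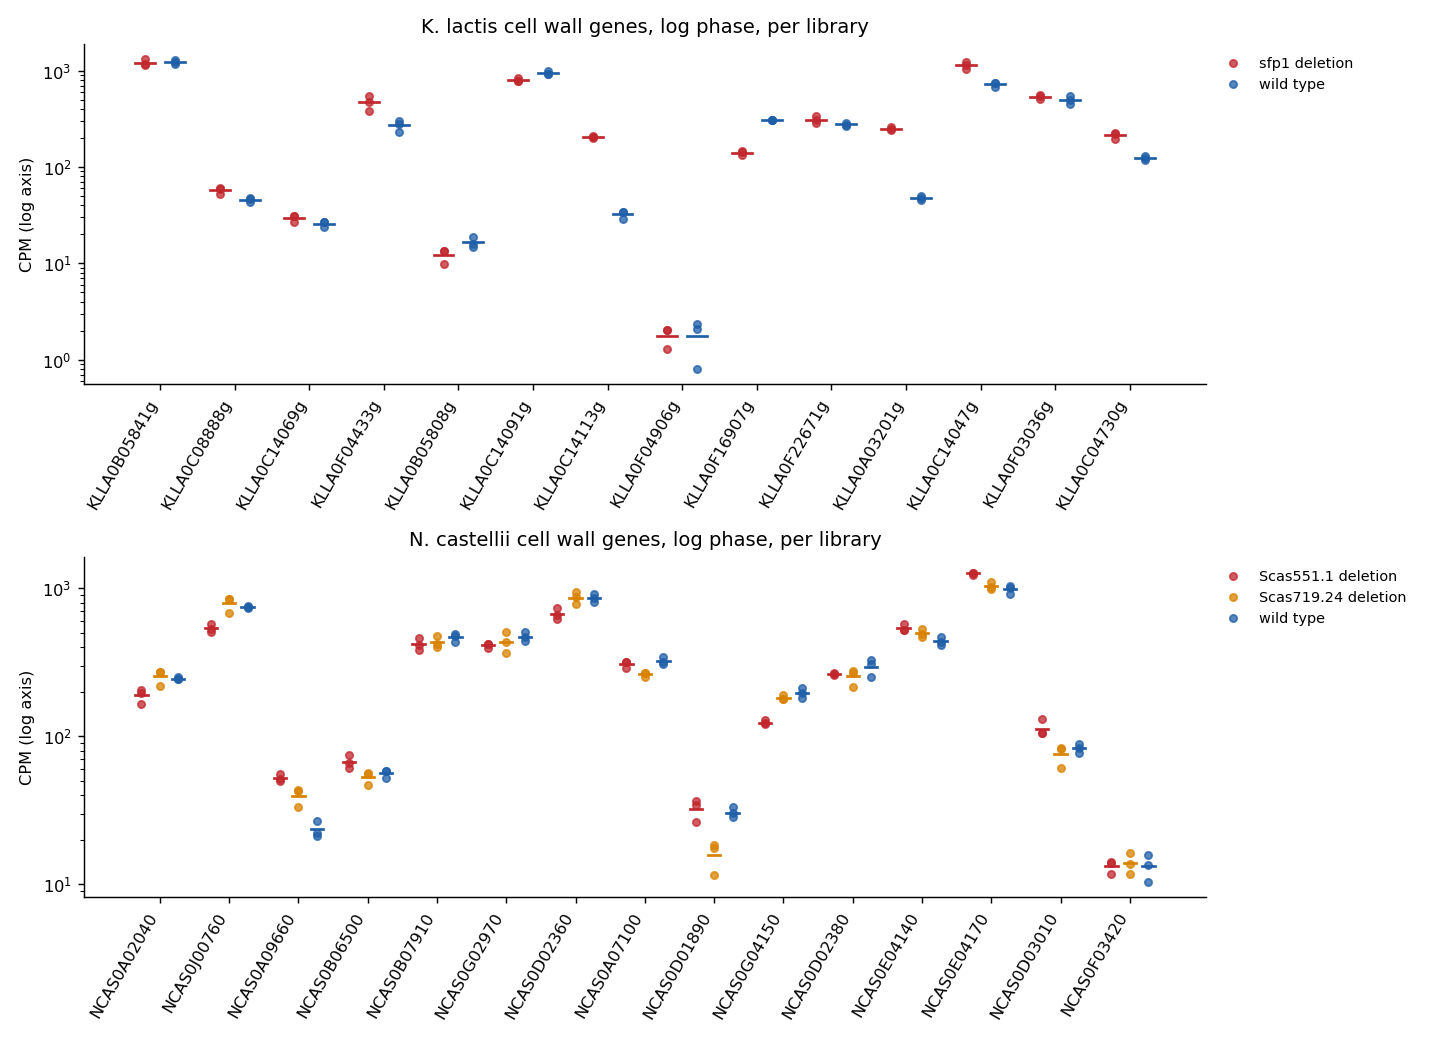
Levels of the K. lactis members (above) and of 15 N. castellii members (below) at log phase, in CPM on log axes; points are libraries, lines are means of 3, altered strains in red and orange and wild type in blue. In K. lactis KLLA0C14113g and KLLA0A03201g sit far above wild type and KLLA0F16907g below it; in N. castellii NCAS0A09660 is higher in both deletions and NCAS0D01890 is lower in the Scas719.24 deletion.

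N. castellii has 2 SFP1 paralogs, deleted 1 at a time. Both deletions share 1 wild type group, so their fold changes are not independent, and the deletions were also compared directly. The SUN gene NCAS0A09660 was higher in both. In the Scas551.1 deletion 4 of 15 members were called higher, where 21.4% of all genes were, and 4 lower, where 20.4% were. With library size alone 5 were higher and 2 lower, where 2220 of all 5338 genes were called in either direction and the median of all was 0.2. In the Scas719.24 deletion 1 was called higher, where 14.8% of all genes were, and 2 lower, where 11.3% were (edgeR). NCAS0H00750 and NCAS0J00750, with 0 to 4 counts per library, did not pass the filter. The summed CPM of the synthase genes was 728 ± 56.9 in the Scas551.1 deletion, 1045 ± 129 in the Scas719.24 deletion and 995 ± 5.74 in wild type (SD, n = 3 each).

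NCAS0A09660 had 55.8, 50.1 and 51.7 CPM in the Scas551.1 deletion, 43.4, 42.5 and 33.6 CPM in the Scas719.24 deletion and 26.9, 22.3 and 21.3 CPM in wild type. It rose by 1.15 ± 0.14 on the log2 scale (adjusted p = 6.53e-07) in the Scas551.1 deletion and by 0.75 ± 0.14 (adjusted p = 0.000233) in the Scas719.24 deletion. The 3 groups did not overlap, and the direct comparison gave 0.40 ± 0.13 (adjusted p = 0.0279), which was lost without Scas551.1 library A (adjusted p = 0.0958) or Scas719.24 library C (0.153). The other 3 SUN genes, NCAS0B06500, NCAS0B07910 and NCAS0G02970, were not called against wild type in either deletion; NCAS0B06500 came nearest, with 61.1, 74.6 and 65.8 CPM in the Scas551.1 deletion, 56.0, 56.3 and 46.6 CPM in the Scas719.24 deletion and 58.0, 52.7 and 58.0 CPM in wild type (0.26 ± 0.11 in the Scas551.1 deletion, adjusted p = 0.0701; without its library A 0.0451).

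The synthase gene NCAS0J00760 had 577, 533 and 505 CPM in the Scas551.1 deletion, 677, 852 and 844 CPM in the Scas719.24 deletion and 753, 736 and 756 CPM in wild type. It was lower in the Scas551.1 deletion (log2 fold change -0.47 ± 0.09, adjusted p = 0.000132), was not called in the Scas719.24 deletion (0.08, adjusted p = 0.559; with library size alone -0.07), and differed between the deletions (-0.55 ± 0.09, adjusted p = 4.35e-05; with library size alone -0.23, adjusted p = 0.0871). NCAS0A02040, the other synthase gene, had 207, 196 and 166 CPM in the Scas551.1 deletion, 220, 271 and 272 CPM in the Scas719.24 deletion and 243, 253 and 244 CPM in wild type, and fell by 0.37 ± 0.10 in the Scas551.1 deletion (adjusted p = 0.00289; with library size alone 0.168). The GAS gene NCAS0D02360 had 740, 661 and 621 CPM in the Scas551.1 deletion, 789, 939 and 868 CPM in the Scas719.24 deletion and 864, 809 and 920 CPM in wild type (-0.36 ± 0.09 in the Scas551.1 deletion, adjusted p = 0.00174; with library size alone 0.17). For all 3 genes each Scas551.1 library was below each wild type library, while the Scas719.24 libraries overlapped wild type. Over all genes 24.8% were below wild type in every Scas551.1 library and 26.3% were above it in every one.

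The CRH genes differed between the paralogs. NCAS0G04150 had 129, 123 and 121 CPM in the Scas551.1 deletion, 179, 179 and 190 CPM in the Scas719.24 deletion and 212, 183 and 197 CPM in wild type, and fell by 0.67 ± 0.08 on the log2 scale in the Scas551.1 deletion (adjusted p = 1.13e-06). NCAS0D01890 had 34.2, 26.5 and 36.5 CPM in the Scas551.1 deletion, 11.6, 17.6 and 18.6 CPM in the Scas719.24 deletion and 33.2, 28.4 and 30.3 CPM in wild type, and fell by 0.94 ± 0.17 in the Scas719.24 deletion (adjusted p = 0.000166). The direct comparison of Scas551.1 with Scas719.24 was called for both, in opposite directions: -0.56 (adjusted p = 3.11e-05; with library size alone -0.23, adjusted p = 0.0929) for NCAS0G04150 and 1.02 ± 0.18 (adjusted p = 0.000178) for NCAS0D01890. A further CRH gene, NCAS0A07100, had 316, 290 and 318 CPM in the Scas551.1 deletion, 251, 270 and 270 CPM in the Scas719.24 deletion and 346, 307 and 320 CPM in wild type (-0.30 ± 0.08 in the Scas719.24 deletion, adjusted p = 0.00542).

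A further 3 wall genes were higher in the Scas551.1 deletion besides the SUN gene. The BGL2 gene NCAS0E04170 had 1280, 1279 and 1236 CPM in the Scas551.1 deletion, 1024, 1106 and 993 CPM in the Scas719.24 deletion and 1001, 910 and 1039 CPM in wild type (log2 fold change 0.36 ± 0.08 in the Scas551.1 deletion, adjusted p = 0.000476). The SCW gene NCAS0E04140 rose by 0.31 ± 0.08 (adjusted p = 0.00384) and the chitinase gene NCAS0D03010 by 0.45 ± 0.11 (adjusted p = 0.00281), the second with 131, 105 and 105 CPM in the Scas551.1 deletion, 61.5, 82.2 and 83.8 CPM in the Scas719.24 deletion and 88.4, 77.2 and 83.6 CPM in wild type. Between the deletions 6 members were called higher in Scas551.1, where 11.3% of all genes were, and 4 lower, where 12.9% were. With library size alone 9 were called, all of them higher, where 2355 of all 5338 genes were called in either direction. The median log2 difference of all genes was then 0.33. With DESeq2 3 were higher and 4 lower, where 935 of all genes were called. Without Scas719.24 library C 6 in all were called, where 992 of 5353 genes were. The calls lost in this last fit were those of NCAS0A09660, NCAS0A07100 (0.23, adjusted p = 0.0417, then 0.0793), NCAS0B06500 (0.34 ± 0.11, adjusted p = 0.0293, then 0.157) and NCAS0E04170 (0.28, adjusted p = 0.00842, then 0.0571). NCAS0D02380, the other SCW gene, and NCAS0F03420, the other chitinase gene, were not called in any of the 3 comparisons, though NCAS0D02380 passed without wild type library B in the Scas551.1 deletion (-0.28, adjusted p = 0.0316) and in the Scas719.24 deletion (-0.33, adjusted p = 0.0171). Of the other wall genes, 17 of 97 were higher and 23 lower in the Scas551.1 deletion, where 21.4% and 20.4% of all genes were. In the Scas719.24 deletion 4 were higher and 27 lower, where 14.8% and 11.3% of all genes were. With library size alone 26 were higher and 13 lower in the Scas551.1 deletion (median 0.11, against 0.2 over all genes). NCAS0A12460 rose in both, by 2.06 in the Scas551.1 deletion and by 1.95 in the Scas719.24 deletion on the log2 scale, and NCAS0H00760, grouped with EXG, fell by 1.88 in the Scas719.24 deletion.

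In C. glabrata, which also has 2 SFP1 paralogs, the 17 tested members stayed within 1 log2 unit of wild type. The CAGL0D00682g deletion changed 1 of 17 tested members and the CAGL0M09955g deletion changed 6, mostly by under 0.6 on the log2 scale. Both deletions share 1 wild type group here too. In the CAGL0D00682g deletion the 1 call was lower (edgeR; 4 members had an unadjusted p below 0.05), where 0.378% of all genes were called higher and 0.189% lower. In the CAGL0M09955g deletion 4 members were called higher, where 15% of all genes were, and 2 lower, where 18.6% were. With library size alone 11 were higher and 1 lower, where 1744 of all 4760 genes were called in either direction. The median log2 fold change of all genes was then 0.18. With DESeq2 0 were higher and 2 lower, where 1054 of all genes were called. CAGL0G01056g, a GAS orthogroup gene, did not pass the filter, with 4, 5 and 8 counts in the CAGL0D00682g deletion, 1, 0 and 0 in the CAGL0M09955g deletion and 3, 2 and 8 in wild type.

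The glucan synthase gene CAGL0K04037g was the one member called in the CAGL0D00682g deletion. It had 71.1, 74.2 and 68.1 CPM there, 104, 114 and 118 CPM in the CAGL0M09955g deletion and 97.3, 100 and 96.5 CPM in wild type. It fell by 0.46 ± 0.09 on the log2 scale in the CAGL0D00682g deletion (adjusted p = 0.00135), was not called in the CAGL0M09955g deletion (0.19 ± 0.08, adjusted p = 0.0637; without its library A 0.0402), and differed between the deletions by -0.65 ± 0.09 (adjusted p = 4.45e-09). No library of the CAGL0D00682g deletion reached the range of either other group. Over all genes 6.66% were below every wild type library in this way, and 18.6% were below every CAGL0M09955g library. A second synthase gene, CAGL0G01034g, had 659, 667 and 573 CPM in the CAGL0D00682g deletion, 575, 568 and 626 CPM in the CAGL0M09955g deletion and 720, 661 and 768 CPM in wild type; it fell by 0.28 ± 0.06 in the CAGL0M09955g deletion (adjusted p = 7.21e-05), a difference of -0.12 with library size alone (adjusted p = 0.185).

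The GAS gene CAGL0M13849g had 349, 342 and 333 CPM in the CAGL0D00682g deletion, 258, 263 and 262 CPM in the CAGL0M09955g deletion and 375, 360 and 383 CPM in wild type. It fell by 0.51 ± 0.06 on the log2 scale in the CAGL0M09955g deletion (adjusted p = 1.8e-10), and the CAGL0D00682g deletion was higher than the CAGL0M09955g deletion by 0.39 ± 0.06 (adjusted p = 3.19e-07). All 3 CAGL0M09955g libraries were below the other 6. Over all genes 22.7% were below every wild type library in this way, and 20.8% were below every CAGL0D00682g library. The 4 higher calls in the CAGL0M09955g deletion were small or on low counts: the SUN genes CAGL0G08668g (0.32 ± 0.10, adjusted p = 0.012), CAGL0J09922g (0.14 ± 0.05, adjusted p = 0.048) and CAGL0L05434g (0.84 ± 0.29, adjusted p = 0.0209, with 3.34 to 13.9 CPM across these 2 groups, which overlap), and the CRH gene CAGL0C02211g (0.22 ± 0.08, adjusted p = 0.0219). Each of these 4 calls was lost without at least 1 library, and without wild type library C none of the 4 passed (adjusted p = 0.0766 for CAGL0G08668g, 0.111 for CAGL0J09922g, 0.19 for CAGL0L05434g and 0.122 for CAGL0C02211g). Without deletion library C CAGL0G08668g (adjusted p = 0.0504), CAGL0J09922g (0.155) and CAGL0L05434g (0.243) were lost, without deletion library B CAGL0J09922g (0.248) and CAGL0C02211g (0.0887), without wild type library A CAGL0J09922g (0.0778) and CAGL0C02211g (0.125), and without wild type library B CAGL0J09922g (0.136). Directly, the CAGL0D00682g deletion had 2 members higher than the CAGL0M09955g deletion, where 17.2% of all genes were, and 3 lower, where 12.3% were. With library size alone 1 was higher and 8 lower, where 1607 of all 4760 genes were called in either direction. The median log2 difference of all genes was then -0.17. With DESeq2 1 was higher and 2 lower, where 902 of all genes were called. The other 3 called, beside CAGL0K04037g and CAGL0M13849g, lost the call in fits that left out a library: CAGL0G08668g (-0.27, adjusted p = 0.0326) without any 1 of the 6 deletion libraries (0.0515 to 0.123), CAGL0L03289g (-0.18 ± 0.06, adjusted p = 0.0148) without CAGL0D00682g library B (0.109) or C (0.0592) or CAGL0M09955g library A (0.0929) or C (0.0566), and CAGL0M13805g (0.17 ± 0.07, adjusted p = 0.0443) without CAGL0D00682g library A (0.163) or B (0.0613) or CAGL0M09955g library A (0.21) or B (0.0626). The remaining 8 tested members were not called in any of the 3 comparisons, with log2 fold changes against wild type of -0.20 to 0.54: the synthase gene CAGL0M13827g, the GAS gene CAGL0G00286g, the CRH genes CAGL0G09449g and CAGL0J08910g, the SCW gene CAGL0G00308g, the BGL2 gene CAGL0G00220g and the chitinase genes CAGL0M09779g and CAGL0A02904g. The BGL2 gene had 547, 527 and 545 CPM in the CAGL0D00682g deletion, 531, 567 and 541 CPM in the CAGL0M09955g deletion and 522, 498 and 523 CPM in wild type, so both deletions lay just above wild type without passing the test. The summed CPM of the 18 members was 3871 ± 162 in the CAGL0D00682g deletion, 3867 ± 104 in the CAGL0M09955g deletion and 3912 ± 54.1 in wild type (SD, n = 3 each). Of the other wall genes, 15 of 102 were called higher and 8 lower in the CAGL0M09955g deletion, and 37 and 2 with library size alone. CAGL0G09515g, grouped with EXG, was higher there by 1.37 on the log2 scale.

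S. pombe, the most distant of the 6 yeasts, makes its beta-glucans with the synthases bgs1, bgs2, bgs3 and bgs4. In the labelled deletion 3 of 11 tested members were called, all of them lower (edgeR; 3 had an unadjusted p below 0.05), where 3.19% of all genes were called higher and 6.82% lower. The gas2 gene, a beta-1,3-glucanosyltransferase gene, had 469, 523 and 466 CPM in the labelled deletion, against 703, 687 and 706 CPM in wild type (log2 fold change -0.52 ± 0.07, adjusted p = 0.00222). The bgl2 gene had 17.7, 23.6 and 24.9 CPM in the labelled deletion, against 55.3, 33.0 and 45.3 CPM in wild type (-1.06 ± 0.23, adjusted p = 0.0173). The synthase gene bgs3 had 178, 166 and 157 CPM in the labelled deletion, against 246, 233 and 202 CPM in wild type (-0.43 ± 0.09, adjusted p = 0.0204). In all 3 genes every labelled deletion library was below every wild type library, where 15.9% of all genes were. Without labelled deletion library A the adjusted p was 0.0934 for bgl2 and 0.0595 for bgs3, without library B 0.0562 for bgl2 and 0.104 for bgs3, without library C 0.059 for bgs3, without wild type library B 0.0626 for bgs3 and without wild type library C 0.0594 for bgl2, so only gas2 was called in every such fit. The call of bgs3 was also lost with library size alone (-0.32, adjusted p = 0.0986) and with DESeq2 (-0.42, 0.0504).

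The other synthase genes overlapped between the groups: bgs4 had 614, 606 and 576 CPM in the labelled deletion, against 739, 577 and 663 CPM in wild type (-0.14, adjusted p = 0.431), and bgs1 and bgs2 differed by -0.19 and 0.13 on the log2 scale. The SUN gene psu1 had 770, 843 and 682 CPM in the labelled deletion, against 1010, 810 and 855 CPM in wild type (-0.21, adjusted p = 0.273), and gas1 differed by -0.02 (with library size alone 0.09). The crr1 gene of the CRH orthogroup (-0.39 ± 0.18, adjusted p = 0.219) and the genes cts2 (0.04 ± 0.14) and mtl3 (0.31 ± 0.16, adjusted p = 0.268), both of which the orthology table puts with the chitinases, overlapped as well. Per kilobase of coding sequence, gas1 (704 CPM per kb) and psu1 (610) were highest in the labelled deletion, and psu1 (711) and gas1 (711) in wild type. The psu2 gene did not pass the filter, with 14, 3 and 0 counts in the labelled deletion and 5, 4 and 9 in wild type. Since sfp1 counts remained in all 3 labelled deletion libraries, these differences are between libraries as labelled. Of the other wall genes on the lists 1 of 56 was called, and it was lower. With library size alone 2 were called, both higher, where 580 of all 5296 genes were called in either direction. The median log2 fold change was then 0.15 for the lists and 0.11 over all genes.

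The authors also deposited microarray log ratios per gene, whose base and replication are not stated and whose sign was turned here so that positive means higher in the altered strain; SFP1 itself reads -8.33 to -6.15 in S. cerevisiae after the turn. In the authors' deposited table GSC2 lay between 0.72 and 1.30 and UTH1 between 1.32 and 2.67 in the 7 S. cerevisiae columns, 4 named BY (15 to 90 min) and 3 named RM (30 to 90 min). FKS1, which was below wild type in the log phase sequencing, lay between 0.17 and 1.63 in the authors' deposited table, above 0 in 7 of 7 columns. CRH1 was above 0 in 7 of 7 columns too (0.09 to 2.36), SCW10 and CTS1 in 6 of 7, SIM1 and SUN4 in 5, GAS1 in 4 and BGL2 in 3 of the authors' deposited columns. In K. lactis the authors' deposited table gave 2.21 to 3.15 for KLLA0A03201g, 0.82 to 1.40 for KLLA0C14113g and 1.06 to 1.40 for KLLA0F04433g, each above 0 as in the sequencing. The chitinase gene KLLA0C04730g, higher in the sequenced deletion, lay between -1.95 and -1.17 in the authors' deposited table, and KLLA0F16907g lay between -1.68 and -0.70. In C. glabrata the authors' deposited table held 3 columns (30 to 90 min) for each deletion. The GAS gene CAGL0G01056g, too low in the sequencing to be tested, read -2.75 to -1.65 in the CAGL0M09955g columns and -0.20 to 0.16 in the CAGL0D00682g columns of the authors' deposited table. The other 17 members read between -0.84 and 1.03 in the 6 columns of the authors' deposited table. In S. pombe gas2 read 0.33 to 0.37 and bgs3 -0.45 to -0.19 in the authors' deposited table, where sfp1 read -8.07 to -7.5. These columns name times in minutes and the sequencing of these species was at log phase, so the signs are set side by side without a comparison.

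**Figure D5:**
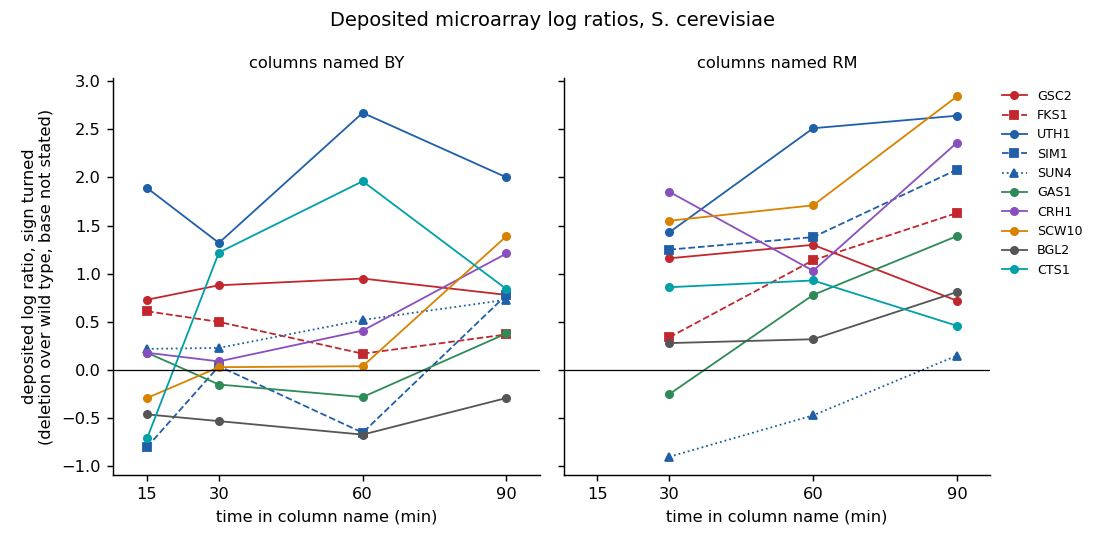
The authors' deposited microarray log ratios of the 10 S. cerevisiae members against the time in the column name (min), in columns named BY (left) and RM (right), with the sign turned so that positive means higher in the deletion; the base and replication are not stated and no error can be given. UTH1 lies between 1.32 and 2.67 and GSC2 between 0.72 and 1.30 in all 7 columns, and BGL2 is below 0 in each BY column and above 0 in each RM column.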

How the data were processed

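RNA-seq of 6 yeasts was analysed from tables that the authors deposited. The members and the wall gene lists were chosen with earlier results of these data known.

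The deposited count tables hold an expected count for each gene in each library, not normalized further by the authors; 59.6% to 96.7% of a table's values were whole to within 1e-06. The tools named in the submitters' processing notes are RSEM 1.2.11, Bowtie 1 and edgeR, whose roles are not stated, and the build named for all samples is ASM294v2, an S. pombe assembly. Builds for the other species are not stated in the sources used. The authors' deposited log2 ratios per gene were used only to read their sign: they run as wild type over altered strain, with correlations of -0.93 to -1.0 with the fold changes computed here. The deposited microarray log ratios are another unit, a log ratio with its base not stated by the authors. The deposited orthology table gives orthogroup numbers, another kind of value.

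Expected counts were rounded, and all groups of a species entered one edgeR quasi-likelihood fit (glmQLFit, glmQLFTest) with TMM factors after filterByExpr at its defaults. The call threshold was 0.05 for p adjusted by Benjamini and Hochberg over every gene tested in the species. The SE was taken as |log2 fold change| over the root of F. CPM values use TMM-scaled library sizes, and the precision of each is limited by the total counts given in the results. Fold changes are of the altered strain over its wild type, except where the text says otherwise. Likeness of pattern is Pearson's r of log2(CPM + 1) over the libraries of a species, for genes averaging at least 4, and the 5 most alike are named. Wall list genes that the text names each have the largest called change of their list in a comparison given; not every such gene is named. Sequences, positions and upstream regions come from RefSeq R64.

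Libraries of a group were compared over 57 pairs. None held identical values, and the chi-square per degree of freedom was 1.09 to 24.38. These values cannot show whether libraries came from separate cultures, as repeat libraries of 1 culture differ too. Each library was counted as a replicate because the labels letter it as one. The fit was tested on simulated counts with known changes. Same-lettered libraries did not deviate together (correlations of -0.26 to 0.12 over 39 pairs, and in 0 of 13 comparisons was every pair above 0.1), so the letters were not used as pairs. Alternatives were RLE size factors, library size alone, no filter on low counts, DESeq2, the letter as a block, the groups of a comparison alone, and leaving out each library in turn; those without 30 min deletion library A and without chromosome II genes were chosen after seeing the data. The microarrays of N. castellii were not used here. R 4.3.3, edgeR 4.0.16, limma 3.58.1, DESeq2 1.42.0, Python 3.11.15, numpy 2.4.6, pandas 2.3.3 and matplotlib 3.10.9 were used.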

Additional observations from a re-analysis of the deposited data

Results flagged for a closer look

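In S. paradoxus the effect of the sfp1 deletion differed between 60 min of lag phase and log phase, by a direct test of the difference, for 7 members. The differences, as the effect at 60 min minus that at log phase on the log2 scale, were 2.91 for Spar_10.123, 0.99 for Spar_11.333 and 1.30 for Spar_9.50 among the SUN genes, 1.18 for the synthase gene Spar_7.339, 1.10 for the SCW gene Spar_13.504, and 1.69 for Spar_7.545 and 0.94 for Spar_5.37 among the CRH genes. For Spar_7.545 and Spar_5.37 the effect changed sign: Spar_7.545 read 1.13 at 60 min and -0.57 at log phase, and Spar_5.37 read 0.36 at 60 min and -0.58 at log phase. With library size alone both log phase calls were lost, at -0.07 (adjusted p = 0.397) for Spar_7.545 and -0.08 (0.308) for Spar_5.37. The log phase strains express markers of different mating types, so growth phase and mating type cannot be told apart in any of the 7.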

How the results depend on the processing

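Of the members' fold changes refitted under an alternative, 2180 kept their direction and side of the threshold (in the comparisons without a test, stayed within their spread), 91 lost a call, 41 gained one, 84 changed sign with no call in either fit, 19 of the comparisons without a test moved by more than their spread, and 3 reversed, all 3 with library size alone: Spar_7.637 at log phase (-0.20 became 0.30), Spar_9.50 at log phase (-0.08 became 0.41) and NCAS0B07910 between the N. castellii deletions (-0.04 became 0.29). That scaling moved the median of all genes by 0.50 in S. paradoxus at log phase, 0.33 between the N. castellii deletions, 0.28 in S. paradoxus at 60 min and 0.23 in S. cerevisiae; the cause was not tested. The count of members called moved by more than 1.5 times in C. glabrata. In the CAGL0M09955g deletion 6 became 2.0 with DESeq2 and 12.0 with library size alone. Over all genes 1601 became 1054 and 1744. Between the deletions 5 became 3.0 with DESeq2 and 9.0 with library size alone, and over all genes 1403 became 902 and 1607.

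Leaving out 1 library gave 2 to 7 members called in the CAGL0M09955g deletion (3 without its library C, 2 without wild type library C) and 2 to 4 between the C. glabrata deletions (2 without CAGL0D00682g library B or CAGL0M09955g library A, 3 without CAGL0D00682g library A or CAGL0M09955g library B or C). It gave 1 in the CAGL0D00682g deletion, 8 to 9 in K. lactis, 8 to 9 in the Scas551.1 deletion, 3 to 4 in the Scas719.24 deletion, 6 to 9 between the N. castellii deletions (6 without Scas719.24 library C), 0 in the HA-tagged strain, 8 to 11 in S. paradoxus at log phase, 8 to 9 at 60 min, 7 to 8 for the difference of those, and 1 to 3 in S. pombe (1 without labelled deletion library A or B). In S. paradoxus at log phase Spar_13.505 was lost without deletion library A (adjusted p = 0.234) or wild type library B (0.0738) or C (0.051), Spar_14.274 without deletion library B (0.353) or wild type library A (0.103) or B (0.128), Spar_12.321 without wild type library B (0.124), and Spar_7.637 without deletion library A (0.0705) or C (0.114) or wild type library A (0.102) or C (0.0555).

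With the replicate letter as a block, 5 members were called in the CAGL0M09955g deletion and 4 between the C. glabrata deletions, and no count of members moved by more than 1.5 times. The block ended the calls of bgl2 in S. pombe (-1.01, adjusted p = 0.0689), CAGL0J09922g in the CAGL0M09955g deletion (0.053), CAGL0M13805g between the C. glabrata deletions (0.0528) and NCAS0A07100 between the N. castellii deletions (0.0632), and Spar_12.321 at 60 min gained one (0.0418). The letters share no stated culture or day, and same-lettered libraries did not deviate together.

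Depth limits the S. paradoxus lag libraries most: at 30 min deletion library A holds 34081 counts, and wild type counts of Spar_10.123 at 60 min are 3, 7 and 5.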

Other observations

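In S. cerevisiae, 341 of 382 tested genes on chromosome II were called higher in the deletion, with a median log2 fold change of 0.93, against -0.01 over the 5444 genes elsewhere. Chromosome II took 13.1% to 13.5% of the counts in the deletion libraries, 7.68% to 7.87% in the HA-tagged ones and 7.71% to 7.77% in wild type. In S. paradoxus the genes with IDs beginning Spar_2 took 11.1% to 12.2% of the counts in the log phase deletion and 6.46% to 6.79% in wild type, 9.13% to 9.77% in the deletion and 6.63% to 6.90% in wild type at 30 min, and 10.6% to 10.9% in the deletion and 7.68% to 7.73% in wild type at 60 min. No cell wall member lies among these genes.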
